A study of Mus musculus with 8 samples.

Results

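The genes described here are the transcriptional feedback set of the ERK pathway: the phosphatase genes Dusp4, Dusp5 and Dusp6, the Sprouty genes Spry1, Spry2 and Spry4, the Spred genes Spred1 and Spred2, and the ETS factor genes Etv4 and Etv5. They were taken by gene symbol from the deposited count table, 10 of 56884 annotated genes. All 10 passed the filter on low counts and were among the 13707 genes tested. Their mRNA was read by bulk sequencing of the Lacun3 line of mouse lung adenocarcinoma, in 4 STK11 KO libraries from cells in which Stk11 was knocked out by CRISPR and in 4 STK11 WT libraries from the parental cells. The product of Stk11 is LKB1, an upstream kinase of AMPK and a tumour suppressor. Both groups grew untreated in the same serum-containing medium and were harvested in logarithmic growth, per the labels' protocols. The labels name 1 KO and 1 WT line and do not say whether the KO line is a clone or a pool, so every difference below is a difference between these lines.

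In the ERK pathway, a growth factor receptor activates RAS, which drives a cascade of kinases that ends in MEK and ERK. ERK signalling raises transcription of its own inhibitors, and the mRNAs of these inhibitors are widely read as a record of pathway output, including in lung adenocarcinoma, where the pathway is often driven by mutant RAS or EGFR. DUSP proteins remove phosphate from ERK, Sprouty and SPRED proteins restrain signalling around RAS, and ETV4 and ETV5 are ETS-family transcription factors whose genes are induced by the pathway. The repressor CIC, which ERK signalling inactivates, binds octamers in promoters of ETV, DUSP and Sprouty genes, and serum response factor, SRF, binds the CArG box.

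Promoter sequence was available for 7 of the 10 genes, in 8 windows running from 250 bases before to 50 bases after the transcription start, from RefSeq on GRCm38.p6; Dusp4, Spry4 and Etv4 are named only. Both strands were searched for the CIC octamers TGAATGAA, TGAATGGA, TCAATGAA and TCAATGGA, the ETS site CCGGAAGT, the cAMP response element TGACGTCA, the AP-1 site TGANTCA and the CArG box; the CIC and CArG matches were not shared with another motif. The stretches upstream of the start are shown for Dusp6, the most abundant member, for Spry2 and Dusp5, which held matches, and for Spry1, which changed most. Capitals mark the matches, read here on the strand of the gene, 5′ to 3′.
Dusp6 (chr10:99263126-99263230, plus strand): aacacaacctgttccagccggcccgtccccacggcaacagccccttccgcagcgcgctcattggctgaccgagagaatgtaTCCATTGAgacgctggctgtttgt
Spry2 (chr14:105896820-105896924, minus strand): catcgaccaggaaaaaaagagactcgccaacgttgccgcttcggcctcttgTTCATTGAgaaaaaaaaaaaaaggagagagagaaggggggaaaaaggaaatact
Dusp5 (chr19:53529025-53529144, plus strand): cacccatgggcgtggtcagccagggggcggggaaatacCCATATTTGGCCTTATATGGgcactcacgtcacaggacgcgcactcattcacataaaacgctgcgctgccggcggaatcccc
Spry1 (chr3:37639847-37639946, plus strand): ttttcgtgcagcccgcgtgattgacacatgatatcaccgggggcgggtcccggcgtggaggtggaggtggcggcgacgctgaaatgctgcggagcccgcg

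The Dusp6 window held TCAATGGA on the opposite strand from base -24 to -17 and again from base 2 to 9, counted from the start. In Spry2, TCAATGAA lay on the opposite strand from base -54 to -47. A CIC octamer was present in 3.84% of all 32851 promoter windows of that length. Dusp5 carried a pair of adjoining CArG boxes from base -82 to -63, and 1.63% of all windows held at least 1 such box. The ETS, cAMP response and AP-1 motifs, present in 3.89%, 1.79% and 7.81% of all windows, had no match in the 8 windows. Such a match is a string of letters and not a measured binding site.

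Library totals ran from 21441601 to 25715008 counts in the KO group and from 18837263 to 21101904 counts in the WT group. The unit used below is CPM, counts scaled to a library's TMM-adjusted size, and a single count equalled 0.0388 to 0.0515 CPM. Stk11 (ENSMUSG00000003068.18), the targeted gene, had 35.4, 35.1, 33.5 and 35 CPM in KO libraries, against 64.9, 67.1, 68.4 and 64.7 CPM in WT libraries. Its transcript was lower in all 4 KO libraries and was still counted at 52.4% of the WT level. The position of the edit is not given in the labels. The neighbour Cbarp, on the other strand, overlaps 232 bp of the gene and held 1053 to 2011 counts in KO and 707 to 847 counts in WT libraries. KO replicate 3 stood apart from the other KO libraries: the chi-square of counts per degree of freedom was 14.2 to 20.7 in its pairs and 4.81 to 9.62 in the other KO pairs. In the WT pairs it was 3.27 to 7.54. The 6 epithelial markers, Epcam, Cdh1, Krt8, Krt18, Krt19 and Cldn4, summed to 7699 to 8607 CPM in KO and 8158 to 8589 CPM in WT libraries, nearly all of it Krt8, Krt18 and Krt19. Single markers differed in direction: Krt18 and Epcam fell 1.4-fold and 1.24-fold, and Krt19 rose 1.17-fold. Krt8 and Cdh1 did not pass the edgeR test. Cldn4 held only 5 counts in the KO group and 37 in the WT group and missed the filter on low counts. Lung markers were nearly absent, with a sum of 6 genes of 0.695 to 1.78 CPM in KO and 0.714 to 1.85 CPM in WT libraries, and Sftpc and Sftpa1 at 0 counts in all 8. The 7 leukocyte markers summed to 13.1 to 25.7 CPM in KO and 46.4 to 53.0 CPM in WT libraries, nearly all of it Cd68, with Ptprc at 0 counts in the KO group and 1 in the WT group. The 7 fibroblast markers summed to 2.03 to 3.07 CPM in KO and 3.92 to 5.72 CPM in WT libraries with Col1a2 and Lum at 0 counts in all 8. Most of it was Col1a1, with 206 counts in the KO group and 310 in the WT group. Col3a1 held 3 and 74 counts, and both genes fell. The 6 endothelial markers summed to 3.42 to 4.81 CPM in KO and 1.05 to 1.85 CPM in WT libraries, with Kdr, Cldn5 and Tie1 at 0 counts in all 8. Nearly all of it was Cdh5, which rose 3.03-fold, with 366 counts in the KO group and 114 in the WT group. The part of any of these in the results was not tested.

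The feedback genes did not move as a block. Spry1 fell to 10.6% of its WT level. Dusp6, Spred1, Etv4 and Spry4 rose by 1.18-fold to 1.38-fold, Dusp5 and Dusp4 fell by 1.24-fold and 1.37-fold, and Spry2, Spred2 and Etv5 did not pass the test. By the quasi-likelihood test of edgeR, with a threshold of 0.05 on the adjusted p, 7 of the 10 passed, beside 68.0% of all tested genes. Upward calls numbered 4, beside 34.4% of all tested genes called higher in KO, and downward calls 3, beside 33.6% called lower. Values of the 4 KO and the 4 WT libraries did not overlap for 6 of the 10, beside 60.6% of all tested genes. The median absolute log2 fold change was 0.37 over the 10 genes and 0.37 over all tested genes, and the signed medians were 0.12 and 0.01. Only Spry1 changed at least 2-fold, 1 of 10 beside 16.4% of all tested genes. The set's share of calls and its typical size of change were thus close to those of all tested genes, and what follows concerns its single members. In bulk RNA a change in the share of cells that express a gene and a change in mRNA per cell cannot be told apart.

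**Figure D1:**
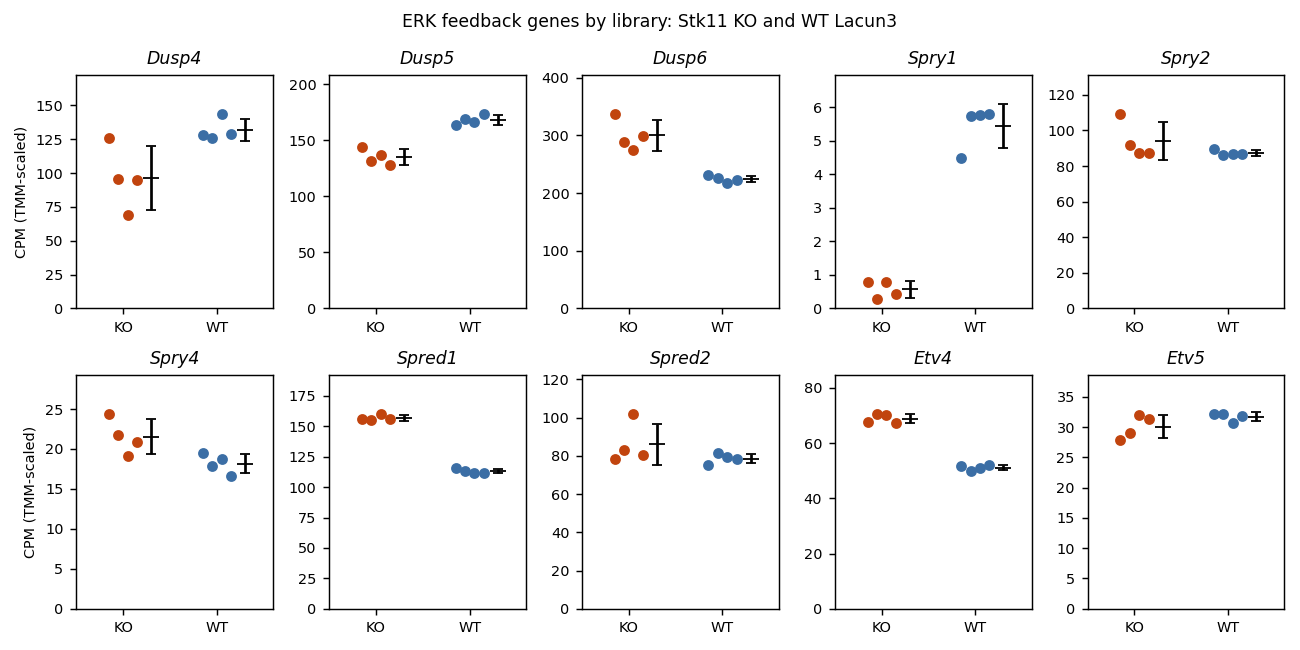
CPM (TMM-scaled, linear axis from 0) of each of the 10 genes in the 4 KO libraries (left) and 4 WT libraries (right) of its panel; points are libraries in replicate order and the black bars give mean ± SD. Dusp6, Spred1 and Etv4 lie higher in every KO library, Spry1, Dusp4 and Dusp5 lower in every KO library, and the groups overlap for Spry2, Spry4, Spred2 and Etv5.

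Among the phosphatase genes, Dusp6 and Dusp5 encode ERK-selective enzymes, the first cytoplasmic and the second nuclear, and Dusp4 encodes a nuclear phosphatase that acts on ERK and also on JNK and p38. Dusp6 (ENSMUSG00000019960.9, GRCm39 chr10:99099093-99103351, plus strand) had 338, 289, 275 and 299 CPM in KO libraries, against 232, 226, 218 and 222 CPM in WT libraries. The lowest KO library lay well above the highest WT library. Dusp6 averaged 300.2 ± 26.9 CPM in KO and 224 ± 6.32 CPM in WT libraries (SD, n = 4 each) and rose, with a log2 fold change of 0.42 ± 0.06 (SE; edgeR adjusted p = 1.62e-06).

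Dusp5 (ENSMUSG00000034765.7, GRCm39 chr19:53517540-53530862, plus strand) went the other way. It had 144, 132, 137 and 128 CPM in KO libraries, against 164, 169, 166 and 174 CPM in WT libraries, with no overlap. The log2 fold change was -0.32 ± 0.05 (SE; edgeR adjusted p = 1.29e-05). An antisense lncRNA gene, Gm50394, overlaps 547 bp of Dusp5 and held at most 7 counts in any KO and 12 in any WT library, against at least 2770 and 3377 for Dusp5; reads of the 2 strands cannot be told apart here.

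Dusp4 (ENSMUSG00000031530.7, GRCm39 chr8:35274451-35287048, plus strand) was the most variable of the well-expressed members. Its KO libraries held 125.6, 95.3, 68.8 and 95.1 CPM, against 128.2, 126.2, 143.8 and 129.1 CPM in WT libraries. All 4 KO values lay below the WT values, but KO replicate 1 lay just under the lowest WT library, and KO replicate 3 lay far below the other KO libraries. The coefficient of variation was 24.1% in KO and 6.12% in WT libraries. The log2 fold change of -0.46 ± 0.16 (SE) passed by a small margin (edgeR adjusted p = 0.038). The call was lost without any one of 6 libraries (KO replicates 2 and 4 and each WT replicate, edgeR adjusted p of 0.0556 to 0.095) and without the filter on low counts (edgeR adjusted p = 0.0833). Alternatives ran from 0.00011 to 0.095 in adjusted p. The log2 fold change was -0.61 without KO replicate 1 and -0.32 without KO replicate 3.

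Sprouty proteins are membrane-associated inhibitors that block the step between receptor tyrosine kinases and the kinase cascade. Spry1 (ENSMUSG00000037211.13, GRCm39 chr3:37694096-37698747, plus strand) was the only member expressed at a low level in both groups. It had 0.793, 0.283, 0.777 and 0.417 CPM in KO libraries, against 4.48, 5.75, 5.78 and 5.82 CPM in WT libraries. These values rest on 16, 6, 20 and 9 counts in KO libraries and on 94, 124, 126 and 113 counts in WT libraries. The highest KO library, replicate 1, lay far below the lowest WT library, also replicate 1, with no overlap.

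Spry1 mRNA averaged 0.567 ± 0.257 CPM in KO and 5.46 ± 0.653 CPM in WT libraries (SD, n = 4 each), and it fell by a log2 fold change of -3.23 ± 0.23 (SE; 95% interval -3.70 to -2.77; edgeR adjusted p = 1.96e-11). Its absolute fold change was larger than that of 97.9% of all tested genes. The antisense gene Gm42922, which overlaps 710 bp of Spry1, had at most 2 counts in any library. Among 10459 genes whose higher group reached 5 CPM, the 3 whose centred log2 CPM followed Spry1 most closely over the 8 libraries were Thrb, a thyroid hormone receptor gene (root mean square difference 0.235), Myo5b, an unconventional myosin gene (0.324), and Cldn9, a claudin gene (0.361). Their log2 fold changes were -3.26, -3.38 and -2.91, each a step between genotypes of about the size seen for Spry1. Such a step follows from the choice of genes by likeness over these same libraries.

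Spry2 (ENSMUSG00000022114.6, GRCm39 chr14:106129381-106134253, minus strand), by far the most abundant Sprouty mRNA here, had 109.5, 91.9, 87.3 and 87.6 CPM in KO libraries, against 89.5, 86.1, 86.5 and 87.0 CPM in WT libraries. KO replicate 1 was high and the other KO libraries lay among or just above the WT values. Its log2 fold change was 0.11 with a 95% interval of -0.03 to 0.24 (edgeR adjusted p = 0.149), the upper end of which is a 1.18-fold rise. Without KO replicate 3 it passed (log2 fold change 0.14, edgeR adjusted p = 0.0458; the alternatives spanned 0.0458 to 0.775), and without KO replicate 1 its log2 fold change was 0.03.

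Spry4 (ENSMUSG00000024427.8, GRCm39 chr18:38719300-38734468, minus strand) had 24.4, 21.8, 19.1 and 20.9 CPM in KO libraries, against 19.5, 17.9, 18.7 and 16.6 CPM in WT libraries. The groups overlapped by 1 library of each, KO replicate 3 lying below WT replicate 1. Spry4 rose, at a log2 fold change of 0.24 ± 0.09 (SE; edgeR adjusted p = 0.0157). The call was lost with scaling by library size alone (adjusted p = 0.101), without KO replicate 1 (0.0577) and without WT replicate 4 (0.0622), all by edgeR, and the alternatives spanned 0.00204 to 0.101.

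SPRED proteins carry a Sprouty-like domain and recruit neurofibromin, the RAS GTPase-activating protein encoded by Nf1, to the membrane. Spred1 (ENSMUSG00000027351.15, GRCm39 chr2:116951855-117012760, plus strand) had 156, 155, 160.3 and 156 CPM in KO libraries, against 116, 113, 112 and 112 CPM in WT libraries. It was the steadiest member, with a coefficient of variation of 1.58% in KO and 1.5% in WT libraries, and the groups were far apart. Spred1 rose, at a log2 fold change of 0.47 ± 0.05 (SE; edgeR adjusted p = 1.48e-08).

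Spred2 (ENSMUSG00000045671.18, GRCm39 chr11:19874375-19974026, plus strand) had 78.4, 82.9, 102 and 80.7 CPM in KO libraries, against 75.3, 81.3, 79.3 and 78.5 CPM in WT libraries. KO replicate 3 stood above all others, and the remaining 3 KO libraries lay within or just above the WT range. Its log2 fold change of 0.13 (95% interval -0.01 to 0.28) did not pass (edgeR adjusted p = 0.0978), and was 0.04 without KO replicate 3. Without KO replicate 1 it was 0.18 and passed (edgeR adjusted p = 0.0299; the alternatives spanned 0.0299 to 0.578).

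Etv4 and Etv5 encode PEA3-family ETS factors. Etv4 (ENSMUSG00000017724.15, GRCm39 chr11:101660568-101676197, minus strand) had 67.8, 70.6, 70 and 67.2 CPM in KO libraries, against 51.8, 49.8, 50.8 and 52.0 CPM in WT libraries. The groups were clearly separate, and Etv4 rose, at a log2 fold change of 0.43 ± 0.05 (SE; edgeR adjusted p = 3.06e-07). Etv5 (ENSMUSG00000013089.16, GRCm39 chr16:22200059-22258469, minus strand) had 27.9, 29.0, 32.0 and 31.3 CPM in KO libraries, against 32.2, 32.2, 30.7 and 31.9 CPM in WT libraries. These values overlapped, with KO replicates 1 and 2 below every WT library, and the log2 fold change was -0.08 with a 95% interval of -0.22 to 0.06 (edgeR adjusted p = 0.314).

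**Figure D2:**
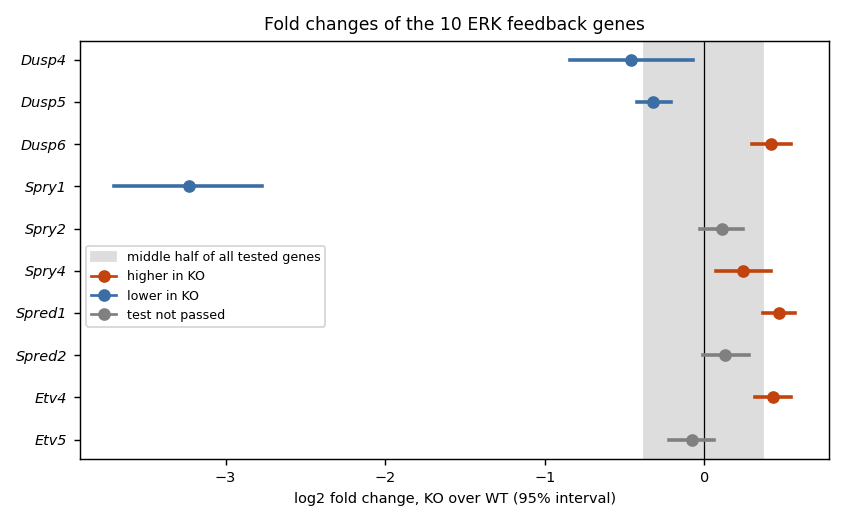
Log2 fold change, KO over WT, of the 10 genes with 95% intervals from the edgeR fit; colours give the call and the grey band spans the quartiles of all tested genes, -0.38 to 0.37. Spry1, at -3.23, lies far outside the band, and the 9 other genes lie within 0.5 of zero.

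Because members of a family share a library, their ratio within each library does not depend on the scaling between libraries. Such log2 ratios were compared for all 8 pairs within families by an exact two-sided permutation test over 70 assignments of the libraries, where the smallest possible p is 0.0286 (n = 4 per group). The balance between members shifted in 7 of the 8 pairs (exact permutation p = 0.0286, adjusted over 8 pairs p = 0.0327), and in those 7 the KO and WT values did not overlap. The share of such pairs among all pairs of genes was not computed, and values of 60.6% of all tested genes did not overlap either. Several pairs share a member, so the ratios in part restate the changes of single genes. Dusp4 and Dusp5 both lost ground to Dusp6: the log2 ratio Dusp4/Dusp6 was -1.67 ± 0.24 in KO and -0.77 ± 0.12 in WT libraries (SD), a difference of -0.90. For Dusp5/Dusp6 it was -1.15 ± 0.10 in KO and -0.42 ± 0.06 in WT libraries, a difference of -0.73. Between Dusp4 and Dusp5 themselves no difference passed, with -0.52 ± 0.33 in KO and -0.35 ± 0.10 in WT libraries (exact permutation p = 0.371, adjusted p = 0.371).

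The ratio Spry1/Spry2 was -7.50 ± 0.68 in KO and -4.01 ± 0.21 in WT libraries on the log2 scale, and Spry1/Spry4 was -5.37 ± 0.74 in KO and -1.74 ± 0.26 in WT libraries, differences of -3.49 and -3.63. The shift of Spry2/Spry4 was small, 2.12 ± 0.06 in KO and 2.27 ± 0.09 in WT libraries, and its highest KO value of 2.19 lay just under the lowest WT value of 2.20. Spred1/Spred2 was 0.87 ± 0.15 in KO and 0.53 ± 0.06 in WT libraries. Etv4/Etv5 was 1.2 ± 0.10 in KO and 0.69 ± 0.04 in WT libraries, so that Etv4 rose relative to Etv5 in 4 of 4 KO libraries, whatever the scaling.

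**Figure D3:**
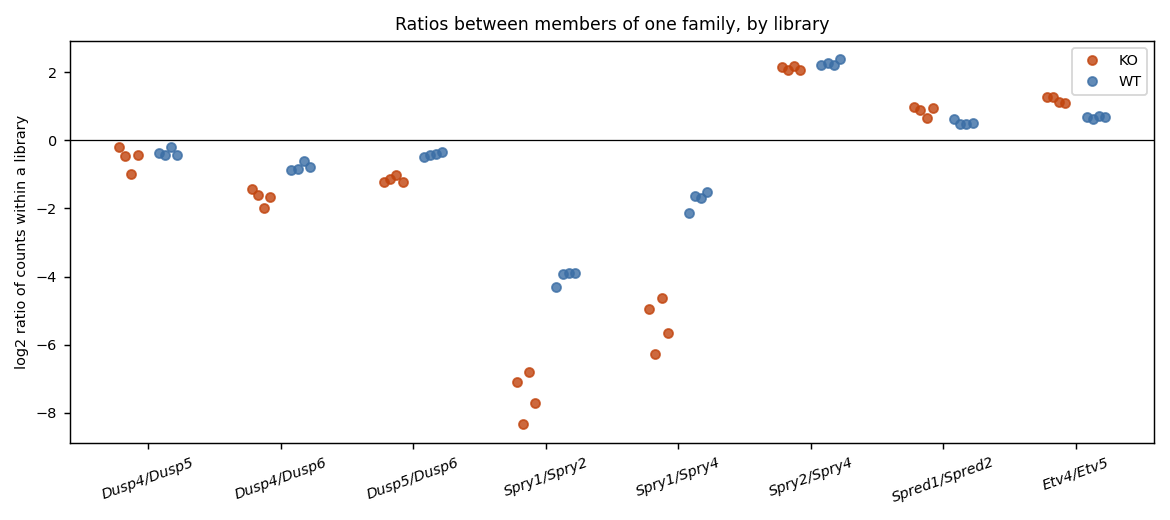
Log2 ratio of counts between 2 members of one family within each library, for 8 pairs; KO points stand left of WT points. KO and WT values separate in every pair except Dusp4/Dusp5, most widely in the pairs with Spry1.

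Per kilobase of annotated exon, the order of levels was led by Dusp6 in both groups. Dusp6 had 95.8 ± 8.58 CPM per kb in KO and 71.7 ± 2.02 CPM per kb in WT libraries (SD, n = 4 each), and Dusp5 had 54.7 ± 2.68 and 68.0 ± 1.75. In WT libraries the ranges of these 2 genes overlapped, whereas in KO libraries Dusp6 lay above Dusp5 throughout. Next in KO libraries came Spry2 with 45.1 CPM per kb, Dusp4 with 35.1, Spred1 with 23.1, Etv4 with 22.2 and Spred2 with 18.6; ranges overlapped between Dusp5 and Spry2, Spry2 and Dusp4, and Etv4 and Spred2. In WT libraries Dusp4 with 48.1 CPM per kb preceded Spry2 with 41.8, and Spred2, Spred1 and Etv4 followed with overlapping ranges at 17.0, 16.7 and 16.5. Etv5 with 7.32, Spry4 with 4.54 and Spry1 with 0.195 CPM per kb closed the order in KO libraries, and the same genes with 7.74, 3.82 and 1.88 CPM per kb closed it in WT libraries.

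Within each family the makeup differed between the groups, and the sums differed less evenly. The 3 phosphatase genes together held 532 ± 53.6 CPM in KO and 524 ± 2.46 CPM in WT libraries (SD, n = 4 each), and the KO values of 481 to 607 CPM enclosed the WT values of 521 to 527 CPM. Within that sum, per kb, Dusp6 made up 51.7% ± 0.771 in KO and 38.2% ± 1.24 in WT libraries. The 3 Sprouty genes held 116 ± 12.7 CPM in KO and 111 ± 1.80 CPM in WT libraries, and Spry1 made up 0.390% ± 0.169 of them per kb in KO and 3.96% ± 0.521 in WT libraries. The Spred genes summed to 243 ± 13.1 CPM in KO and 192 ± 1.85 CPM in WT libraries, and Etv4 with Etv5 to 99.0 ± 2.60 CPM in KO and 82.9 ± 1.30 CPM in WT libraries; both sums were higher in every KO library than in any WT library.

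**Figure D4:**
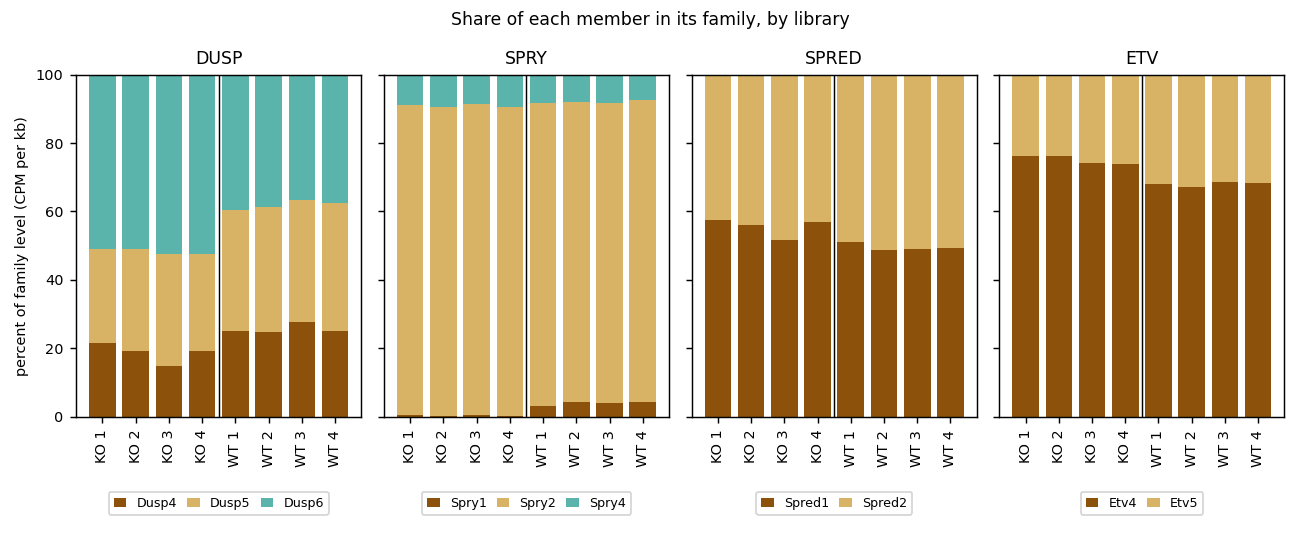
Share of each member in the summed level of its family (percent of CPM per kb of exon) in each library, KO left and WT right of the line. Dusp6 takes 50.9% to 52.4% of its family in KO and 36.8% to 39.6% in WT libraries, and Etv4 takes 74.0% to 76.3% and 67.2% to 68.6% of the ETV pair.

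Relatives of the 10 genes, other phosphatase, Spred and ETV genes, were tested for 9 members. Of these 4 rose and 4 fell, beside 34.4% higher and 33.6% lower of all tested genes, and 1 did not pass. The median log2 fold change was 0.25, beside 0.01 over all tested genes. Dusp1, an immediate-early phosphatase that prefers p38 and JNK, had 190.0, 127, 96.0 and 139.9 CPM in KO libraries, against 17.9, 20.5, 23.7 and 18.1 CPM in WT libraries. That is a 6.87-fold rise (edgeR adjusted p = 4.26e-05) with wide spread among the KO libraries, all of them far above the WT libraries. Dusp16, which acts on JNK and p38, rose 1.41-fold. Dusp2, a nuclear phosphatase, rose 1.61-fold at a low level, with 298 counts in the KO group and 175 in the WT group. Dusp10, a p38 and JNK phosphatase, fell to 17.2 ± 2.82 CPM in KO libraries, against 41.5 ± 1.47 CPM in WT libraries (SD, n = 4 each), and Dusp9, an ERK-selective cytoplasmic phosphatase, to 10.6 ± 0.904 CPM, against 18.3 ± 0.339 CPM. Etv1, the third PEA3-family gene, was low in both groups and fell to 0.338 ± 0.170 CPM in KO libraries, against 1.03 ± 0.306 CPM in WT libraries (edgeR adjusted p = 0.000511).

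Other genes commonly read as ERK output moved in both directions. Of 15 tested, 9 rose and 5 fell, beside 34.4% and 33.6% of all tested genes. Their median log2 fold change was 0.69, beside 0.01 over all tested genes, and their median absolute log2 fold change was 1.05, beside 0.37. The list was chosen with earlier results of these data known, which limits this comparison. The 1 gene that did not pass was Egr1 (log2 fold change -0.11), named after its value was seen. Lif, a cytokine of the IL-6 family, rose to 229 ± 16.3 CPM in KO libraries, against 58.9 ± 5.64 CPM in WT libraries (SD, n = 4 each). Odc1, the first enzyme of polyamine synthesis, rose 2.45-fold and Epha2, an ephrin receptor gene, 2.28-fold. Myc fell to 355 ± 12.3 CPM in KO libraries, against 1007 ± 17.4 CPM in WT libraries, and Ccnd1, which encodes cyclin D1, to 721 ± 29.3 CPM, against 2028 ± 67.2 CPM. Epha4, another ephrin receptor gene, fell 2.17-fold (largest edgeR adjusted p of these 6 genes 6.58e-14, for Epha4).

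Among core pathway genes, 13 of 23 tested rose and 4 fell, beside 34.4% higher and 33.6% lower of all tested genes, and 6 did not pass. Their median log2 fold change was 0.17. Map2k1, which encodes MEK1, rose to 322 ± 5.35 CPM in KO libraries, against 201 ± 2.78 CPM in WT libraries (SD, n = 4 each). Nras, which encodes a RAS protein, rose 1.30-fold. Ptpn11, which encodes the phosphatase SHP2, and Sos1, a RAS exchange factor gene, fell 1.28-fold and 1.19-fold, and the low-level adaptor gene Gab1 fell to 0.511 ± 0.234 CPM in KO libraries, against 1.36 ± 0.393 CPM in WT libraries (edgeR adjusted p = 0.000737). With scaling by library size alone 10 core genes rose and 5 fell, beside 3921 higher and 5280 lower of all 13707 genes tested. In the main fit 4721 of all tested genes were higher and 4601 lower.

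Of 20 inhibitors of the pathway outside the feedback set, 9 were higher, 6 lower and 5 did not pass, beside 34.4% higher and 33.6% lower of all tested genes. The median log2 fold change was 0.16, and the median absolute log2 fold change was 0.29, beside 0.37 over all tested genes. Errfi1, a feedback inhibitor of the EGF receptor family, rose to 474 ± 32.5 CPM in KO libraries, against 134 ± 6.68 CPM in WT libraries (SD, n = 4 each). Atxn1, which encodes a partner of CIC, rose 1.75-fold and Dab2ip, a RAS GTPase-activating protein gene, 1.41-fold. Cic itself, named here because of the promoter matches and after its value was seen, rose 1.30-fold (edgeR adjusted p = 8.03e-06). Rasal1, a RAS GTPase-activating protein gene, had 6 counts in the KO group and 467 in the WT group. Il17rd, which encodes the ERK inhibitor SEF, fell to 4.55 ± 0.459 CPM in KO libraries, against 12.9 ± 1.04 CPM in WT libraries, and the ETS repressor gene Erf fell 1.19-fold.

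Receptor genes that feed the pathway were tested for 8 of 13, of which 3 rose and 4 fell, beside 34.4% and 33.6% of all tested genes. The 1 that did not pass was Egfr (log2 fold change -0.04; named after its value was seen). Met, the receptor of hepatocyte growth factor, rose 1.52-fold, Igf1r 1.14-fold, and Fgfr3 to 1.44 ± 0.246 CPM in KO libraries, against 0.412 ± 0.211 CPM in WT libraries (SD, n = 4 each). Axl, a receptor of the TAM family, fell to 1007 ± 43.4 CPM in KO libraries, against 1959.7 ± 63.6 CPM in WT libraries, and Erbb2 fell 2.05-fold. Fgfr1 held 3 counts in the KO group and 53 in the WT group, a WT-to-KO ratio of 18.7 with an exact 95% counting interval of 6.06 to 93.6. The call of Igf1r was lost with scaling by library size alone (edgeR adjusted p = 0.159) and without WT replicate 1 (0.05), while its alternatives spanned 0.00333 to 0.159.

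**Figure D5:**
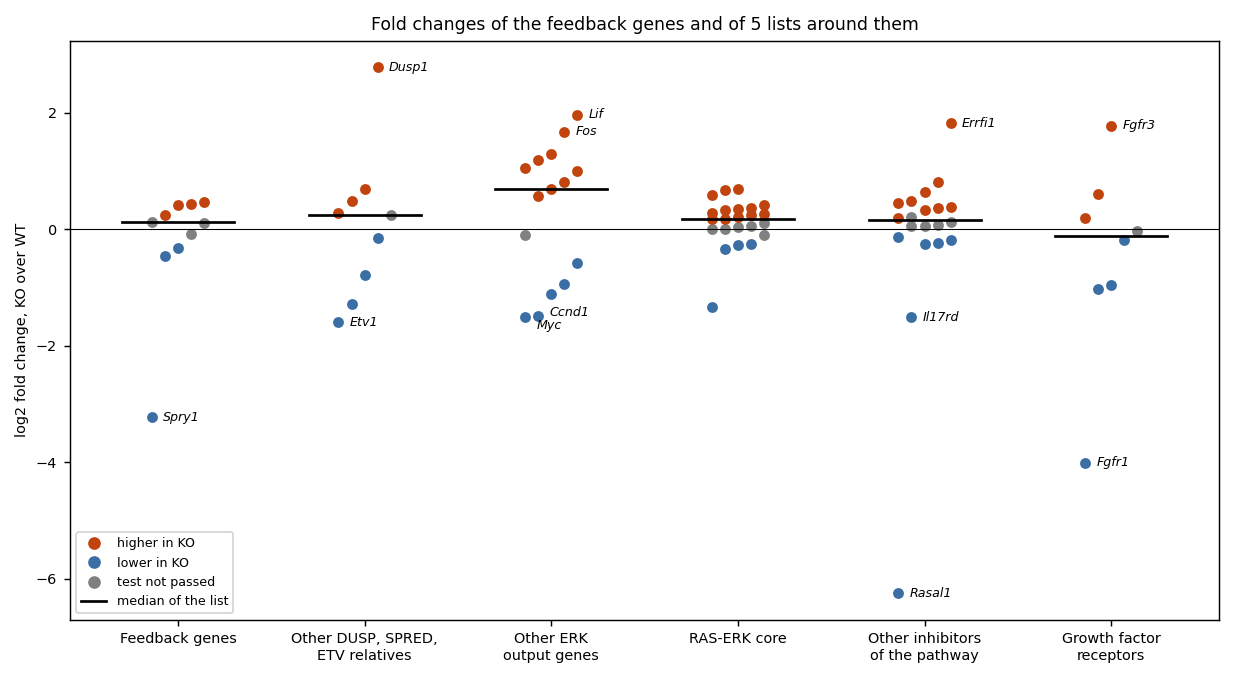
Log2 fold change, KO over WT, of every tested gene in the feedback set and in 5 lists of the pathway around it; colours give the call and black lines the median of each list. Medians lie between -0.11 and 0.69, and the widest single changes are Rasal1 (-6.25, from 6 KO counts), Fgfr1 (a fitted position that rests on 3 KO counts), Spry1 (-3.23) and Dusp1 (2.78).

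The genes closest to Dusp6 over the 8 libraries, by the same measure as for Spry1, were Afg3l2, a mitochondrial protease gene (root mean square difference 0.0242), Me1, malic enzyme (0.0279), and Oaf (0.0296). None of the 3 is among the pathway lists, which hold few genes beside the 10459 compared. Their log2 fold changes were 0.39, 0.44 and 0.43, near that of Dusp6, as follows from the way they were chosen.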

How the data were processed

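Cells were untreated, and stranded mRNA libraries were sequenced as read pairs, per the labels' protocols. Tools named in the submitters' processing notes are edgeR, limma, featureCounts 1.6.0, STAR 2.7.9a and FastQC 0.11.8, with the build GRCm39 and no role for each. How strand and multiply mapped reads were handled is not stated, so reads shared by paralogues, overlapping or antisense genes cannot be separated here. The count table deposited by the authors holds raw counts per gene for 8 libraries. A deposited table of log2 CPM values from voom, with 15726 genes, served only as an alternative. Genotype was tested with edgeR 4.0.16 (filterByExpr, TMM, robust quasi-likelihood), and p-values were adjusted by Benjamini-Hochberg over the 13707 genes that passed the filter. The SE is the absolute log2 fold change divided by the square root of F, and folds are fitted. "Rose" and "fell" mean an adjusted p under 0.05. Exact permutation tests used scipy 1.17.1, and DESeq2 1.42.0 and limma 3.58.1 gave alternatives. Exon lengths are unions from GENCODE M21, on another build than the counts. The main edgeR fit was tested on simulated data, and the fits of the alternatives were not. The simulation changed few genes and gave all genes the same spread between replicates, whereas 68.0% of all tested genes passed here. It therefore does not show how the scaling and the error rate hold in these data. The labels call the replicates biological without naming separate cultures, so p-values measure the spread between these samples, which may be technical.

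The members and lists were chosen with earlier results of these data known. Named are Stk11, all members, up to 3 genes per list and direction with the smallest adjusted p, and the 3 genes nearest in centred log2 CPM to the member with the largest change and to the most abundant member; exceptions are marked, and 1 gene that this rule takes is not reported here. Intervals on counts cover counting error only.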

Additional observations from a re-analysis of the deposited data

Results flagged for a closer look

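By Dixon's criterion 1 library stood apart from the other 3 of its group in 6 of 108 groups of values, and chance gives about 1 in 20. Dusp4 had 144 CPM in WT replicate 3, against 126 to 129 CPM in the other WT libraries. Spry1 had 4.48 CPM in WT replicate 1, against 5.75 to 5.82 CPM in the others, and the log2 ratio Spry1/Spry2 of that library was -4.32, against -3.91 to -3.90. The Spred sum was 262 CPM in KO replicate 3, against 234 to 238 CPM in the other KO libraries, and 195 CPM in WT replicate 2, against 191 CPM in each other WT library. All 10 genes together held 1072 CPM in KO replicate 1, against 952 to 967 CPM in the other KO libraries.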

How the results depend on the processing

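Across 18 alternatives (scalings, filters, edgeR's legacy test, DESeq2, limma, the replicate block and leaving out each library) Stk11, Dusp5, Dusp6, Spry1, Spred1 and Etv4 kept their direction and passed, Etv5 did not pass under any, and no value reversed. Dusp4 did not pass without the low-count filter (log2 fold change -0.46), with the replicate block (-0.48, edgeR adjusted p = 0.0605) or without 6 of the 8 libraries, and ranged from -0.61 to -0.32 when a library was left out. Spry4 was 0.16 with library size alone and did not pass, and ranged from 0.18 to 0.30 when a library was left out. Leaving out a library gave 0.03 to 0.14 for Spry2 and 0.04 to 0.18 for Spred2. The cause was not tested. Replicate numbers did not pair the libraries (correlations of same-numbered deviations -0.0985 to 0.0356); under the replicate block 4633 genes were higher and 4549 lower in KO, against 4721 and 4601 without it. Over all alternatives 3921 to 5079 genes were higher and 4311 to 5280 lower. Paralogue ratios kept their direction in all alternatives; with 1 library left out an exact permutation p cannot go below 0.0571, and with pairs not below 0.125. Scaling by library size alone moved the median of all genes by -0.08. Spry1 rests on 6 to 20 counts per KO library, which limits the precision of its fold change.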
